A study of Homo sapiens with 10 samples.

Results

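The guide RNA labelled TOP1 was set against the activator alone in HEK293FT cells. This human embryonic kidney line takes up plasmids well and makes a viral large T antigen, a protein that binds p53. The members are all features of the deposited expression table with a gene name and a mean of at least 1 FPKM (fragments per kilobase of transcript, scaled to the mapped fragments of a library) over the 10 libraries. There were 11574 of them, out of 20246 features in all, and 11570 were endogenous; the others were construct transcripts. TOP1 is the name of a guide design here. It is not the topoisomerase gene of that name, which is treated below as an ordinary endogenous gene. The labels do not say what distinguishes this design from the guides labelled sgRNA, INT and P4P6.

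In the TOP1 group, cells received dCas9-VP64 and the TOP1 guide, which is directed at an integrated Gaussia luciferase reporter. In the sgRNA, INT and P4P6 groups the guide differed, and the CasVP group received dCas9-VP64 with no guide. All groups carried lentivirally integrated Gaussia and Cypridina luciferase reporters, and all groups received the activator, so CasVP is not an untreated control. Wells held 125000 cells and were transfected 1 day after they were plated. They received 59 ng of activator plasmid and 679.4 ng of carrier plasmid with 2.25 uL of Lipofectamine, and RNA was taken 3 days later. Guide plasmid, where given, was at 11.6 ng; the labels do not say whether anything took its place in CasVP. Each group had 2 libraries, named here by the index 0 or 1 of their columns.

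dCas9 is a Cas9 protein that binds DNA at sites paired with its guide but no longer cuts, and VP64 is a viral activation domain that draws coactivators such as Mediator and histone acetyltransferases to the bound promoter. Without a guide the fusion has no programmed target. The comparison asks how a guide changes its target and the rest of the transcriptome.

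The estimated depth was about 26400000 and 19200000 fragments in the TOP1 libraries, and 26000000 and 23000000 in the CasVP libraries. Pearson's r of log2(FPKM + 1) across features was 0.997 between the TOP1 libraries and 0.998 between the CasVP libraries, where features are not independent replicates. Of 25 HEK293 and embryonic kidney genes listed, 24 had a named feature and 17 of these passed the filter, among them HOXA11 and VIM. Of 8 endothelial markers with a named feature, 0 passed the filter, and their summed level was at most 0.205 FPKM in a TOP1 or CasVP library. Of 8 fibroblast and 11 immune cell markers with a named feature, 1 each passed (COL1A1 and CD68). Just inside the filter stood ZNF785, with means of 0.811 FPKM in TOP1 and 1.22 FPKM in CasVP; just outside it stood GABRD, at 0.989 FPKM in TOP1 and 0.860 FPKM in CasVP.

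The Gaussia reporter rose with the TOP1 guide. Its transcript stood at 257 and 273 FPKM in the TOP1 libraries, against 23.8 and 22.7 FPKM in the CasVP libraries, so the groups lay far apart. The means were 265 ± 11.2 FPKM in TOP1 and 23.3 ± 0.759 FPKM in CasVP (SD, n = 2 each), a ratio of 11.4. The log2 difference of FPKM + 1 was 3.45 (SE 0.07, 95% confidence interval 3.29 to 3.61, limma adjusted p = 3.27e-09). An exact two-sided permutation test of 2 libraries against 2 gave p = 0.33, the smallest it can give. Since RNA was taken from whole wells, more RNA per transfected cell and more transfected cells cannot be told apart from the reporter alone; the activator's transcript, from a plasmid given to both groups, was 1.13 times as abundant in TOP1 as in CasVP.

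Among the guides, TOP1 gave the reporter a level between those of INT and P4P6. Gaussia was at 787 and 857 FPKM with sgRNA, at 356 and 366 FPKM with INT and at 189 and 163 FPKM with P4P6. The TOP1 libraries overlapped with none of these groups; their mean was 32.2% of that with sgRNA, 73.4% of that with INT and 151% of that with P4P6. Against the mean log2 level of the other 3 guides, the difference with TOP1 was -0.49 (SE 0.06, limma adjusted p = 0.0776), which missed the threshold of 0.05. Without the P4P6 libraries it was -1.04 and passed (limma adjusted p = 1.89e-05). It also passed under quantile normalization, at -0.58 (adjusted p = 0.0126), and with library weights, at -0.49 (adjusted p = 0.0282).

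The activator was itself less abundant with TOP1 than with sgRNA or INT. The dCas9-VP64 transcript stood at 16.1 and 17.1 FPKM with TOP1, 24.0 and 23.4 FPKM with sgRNA, 25.6 and 25.9 FPKM with INT, 17.1 and 20.1 FPKM with P4P6, and 14.8 and 14.6 FPKM in CasVP. TOP1 lay above CasVP without overlap, but the log2 difference of 0.16 did not pass (SE 0.07, 95% confidence interval 0.01 to 0.32, limma adjusted p = 0.533). Against the other 3 guides together the difference was -0.42 (adjusted p = 0.0969).

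Per unit of activator transcript, the order of TOP1 and INT was the other way round. The ratio of Gaussia to dCas9-VP64 FPKM was 16.0 and 15.9 with TOP1, 32.8 and 36.7 with sgRNA, 13.9 and 14.1 with INT, 11.0 and 8.10 with P4P6, and 1.61 and 1.56 in CasVP. The mean ratio with TOP1 was thus 10.1 times that of CasVP, 1.14 times that of INT, 1.67 times that of P4P6 and 0.460 times that of sgRNA. No 2 of the 5 groups overlapped in this ratio. These ratios are descriptions, with no test.

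**Figure D1:**
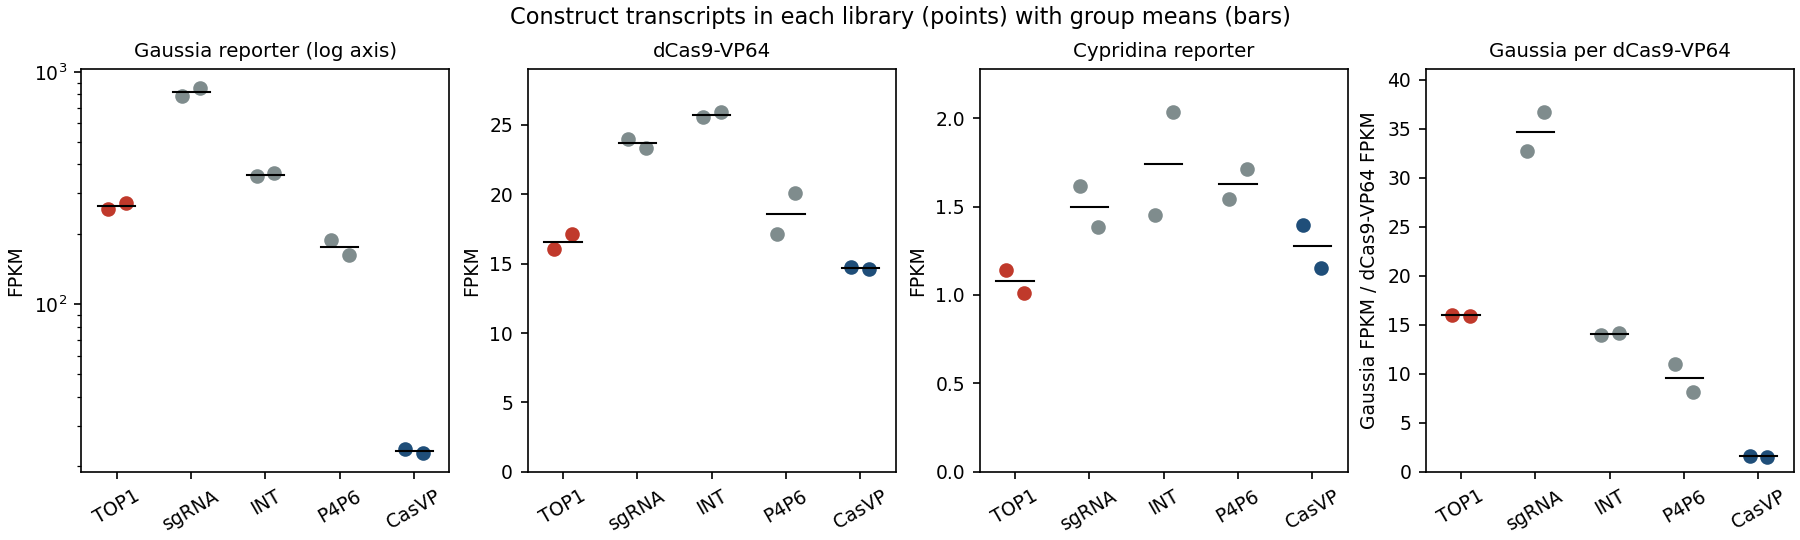
Levels of the construct transcripts in FPKM for each of the 10 libraries (points) with group means (bars), by group, and the ratio of Gaussia to dCas9-VP64 FPKM on the right; the Gaussia axis is logarithmic. With TOP1 the reporter sits at 257 and 273 FPKM, below INT at 356 and 366 FPKM, whereas its ratio to the activator is 16.0 and 15.9 with TOP1 and 13.9 and 14.1 with INT.

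Cypridina luciferase, the untargeted reporter, was weakly expressed. It measured 1.14 and 1.01 FPKM with TOP1, against 1.40 and 1.15 FPKM in CasVP. Both TOP1 libraries lay below the other 8, though TOP1 replicate 0 by little, and the log2 difference from CasVP was -0.13 (95% confidence interval -0.39 to 0.13, limma adjusted p = 0.736). The TOP1 guide has an entry of its own in the table, at 0.331 and 0.441 FPKM in the TOP1 libraries and at 0 in the other 8, which matches their labels. The entries of the other guides were at 0 in both TOP1 libraries. Guides are made from a U6 promoter by RNA polymerase III and lack a poly(A) tail, while the libraries were poly(A) selected, so these entries do not measure how much guide was present.

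No endogenous gene passed the test between TOP1 and CasVP. Of the 11574 features tested, 1 passed, which is 0.00864% and was the Gaussia reporter; the lowest adjusted p of an endogenous feature was 0.501. At an unadjusted p under 0.05 there were 1067 features (9.22%), 497 with higher and 570 with lower estimates in TOP1. The estimates were small. They exceeded 0.25 on the log2 scale in 124 endogenous features and were below -0.25 in 123, and they exceeded 0.5 in 6 and were below -0.5 in 5. The SD of the difference between group means was 0.105 over endogenous features. For single libraries, over all tested features, it was 0.138 between the TOP1 libraries and 0.104 between the CasVP libraries. Means of 2 libraries vary less than single libraries, so these SDs do not show whether the groups differ more than replicates do. In 11389 endogenous features, 98.4% of them, the 95% confidence interval lay within a factor of 1.5 of FPKM + 1 in either direction. The test of TOP1 against the other 3 guides called 0 features, with 2450 (21.2%) at an unadjusted p under 0.05. That count of calls depended on the processing, most of all on a replicate block by column index, as given further below.

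**Figure D2:**
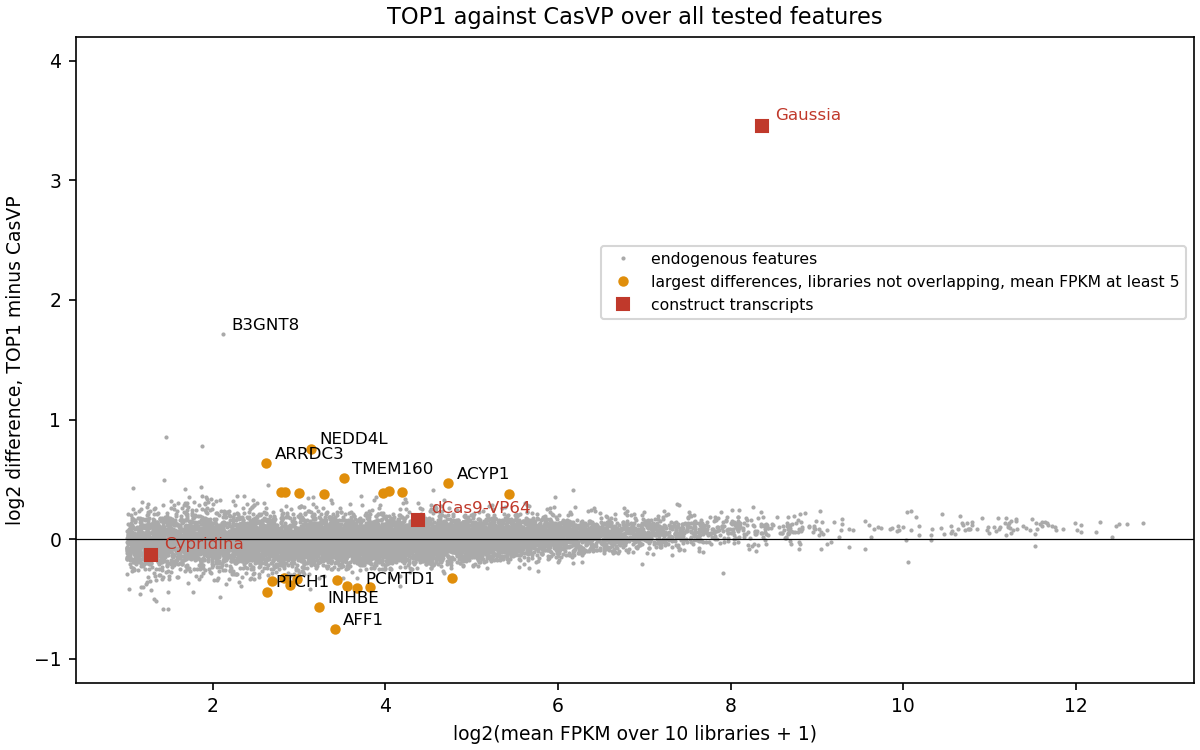
Log2 difference of FPKM + 1, TOP1 minus CasVP, for each of the 11574 tested features against log2 of the mean FPKM over all libraries plus 1; the guide entry is not drawn. Gaussia, at 3.45, stands apart, while 124 endogenous features lie above 0.25 and 123 below -0.25; B3GNT8, at 1.71, was high in TOP1 replicate 0 and not in TOP1 replicate 1.

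The largest endogenous differences were therefore described by value, and none of these genes passed the test. The libraries of TOP1 all lay above those of CasVP in 2856 features (24.7%) and all below in 2719 (23.5%). That is 48.2% in either direction, so a lack of overlap is common here. Counts of list members without overlap, given below, are to be read beside these shares. Estimates above 0 were seen for 50.8% of features against CasVP and for 52.8% against the other 3 guides. Both TOP1 libraries lay above all other 8 in 502 features (4.34%) and below all other 8 in 563 (4.86%). The genes below are those with the largest log2 difference, or the smallest p, among single-gene features with no overlap and a mean of at least 5 FPKM.

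Several of the highest estimates in TOP1 belonged to the alpha-arrestins and their ubiquitin ligases, adaptors and enzymes that mark membrane proteins for internalisation. NEDD4L, a ligase that limits epithelial sodium channels, measured 14.1 and 5.16 FPKM in TOP1 libraries, against 4.64 and 4.75 FPKM in CasVP libraries. The log2 difference of 0.76 (SE 0.34, limma adjusted p = 0.534) rests on 1 library: it was 0.11 without TOP1 replicate 0. ARRDC3, an arrestin-domain adaptor for such ligases, measured 7.48 and 4.90 FPKM in TOP1, against 4.08 and 3.08 FPKM in CasVP, a log2 difference of 0.63 (SE 0.27, adjusted p = 0.533) that was 0.37 without TOP1 replicate 0. ARRDC4, its glucose-responsive relative, stood at 51.1 and 42.9 FPKM in TOP1 and at 37.2 and 34.7 FPKM in CasVP (log2 difference 0.37, adjusted p = 0.536). TXNIP, another glucose-responsive member, which binds thioredoxin, had 73.3 and 72.6 FPKM in TOP1 and 63.1 and 62.7 FPKM in CasVP (0.21, adjusted p = 0.501).

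Over the whole list of 13 tested alpha-arrestin and NEDD4-type ligase features, 0 passed, and the median difference was 0.07, against 0.00 over all features. Of the 13, 8 lay above CasVP without overlap and 2 below, where 24.7% and 23.5% of all features did. ARRDC1 and NEDD4 were the 2 below, with log2 differences of -0.19 and -0.08. ARRDC3 was at a like level in TOP1 and with sgRNA, at 7.36 and 4.69 FPKM, and INT, at 7.10 and 4.88 FPKM, and was at 5.08 and 2.78 FPKM with P4P6, near CasVP. The difference of ARRDC3 between TOP1 and the other 3 guides was 0.21 (adjusted p = 0.606).

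ACYP1, an acylphosphatase, combined a large estimate with tight libraries. It measured 32.7 and 31.1 FPKM in TOP1, against 23.6 and 21.9 FPKM in CasVP, and 29.7, the higher sgRNA value, was the highest of the other guides. Both TOP1 libraries thus lay above all other 8. The log2 difference was 0.47 (SE 0.10, limma adjusted p = 0.501). APIP, an enzyme of methionine salvage, had the smallest p of the endogenous features, at 42.8 and 39.9 FPKM in TOP1 and 34.5 and 33.0 FPKM in CasVP (log2 difference 0.29, limma adjusted p = 0.501). PDCD4, an inhibitor of translation initiation, had 52.9 and 52.6 FPKM in TOP1 and 45.4 and 44.1 FPKM in CasVP; both APIP and PDCD4 lay above all other 8 libraries. ZNF138, a zinc finger gene, had 9.98 and 10.2 FPKM in TOP1 and 7.69 and 7.95 FPKM in CasVP.

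Among the other genes with the highest estimates, TMEM160 and MITF had wider libraries, with an SE of 0.18 and 0.22. C9orf46 and TPM2 were nearer to ACYP1, with an SE of 0.12 and 0.10. TMEM160, a mitochondrial membrane protein, measured 14.5 and 8.41 FPKM in TOP1 and 7.58 and 7.36 FPKM in CasVP, with the higher value in 1 TOP1 library. MITF, the melanocyte transcription factor, measured 6.0 and 8.69 FPKM in TOP1 and 5.26 and 5.23 FPKM in CasVP. SULF1, which trims heparan sulfate, C9orf46, SLC16A9, a monocarboxylate transporter, and TPM2, a tropomyosin, had log2 differences between 0.38 and 0.40, and their lowest limma adjusted p was 0.501.

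The lowest estimate was that of AFF1, a scaffold of the super elongation complex, which releases paused RNA polymerase II. AFF1 measured 6.70 and 6.42 FPKM in TOP1, against 18.6 and 7.29 FPKM in CasVP. The log2 difference of -0.75 (SE 0.28, limma adjusted p = 0.518) was decided by 1 CasVP library: it was -0.13 without CasVP replicate 0, and -1.37 and past the threshold without CasVP replicate 1 (adjusted p = 0.000247). AFF1 was also high with P4P6, at 14.1 and 14.9 FPKM, and between 6.75 and 7.95 FPKM with sgRNA and INT. Of the 19 tested members of the super elongation complex and P-TEFb list, 0 passed, 3 lay above CasVP without overlap and 8 below. The shares of all tested features were 24.7% above and 23.5% below. The 8 include the P-TEFb inhibitors HEXIM1 and HEXIM2, with log2 differences of -0.17 and -0.19. The median was -0.02, range over alternatives -0.06 to -0.02.

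INHBE, an activin subunit and a target of the integrated stress response, measured 6.54 and 8.10 FPKM in TOP1, against 10.3 and 12.3 FPKM in CasVP. Its log2 difference was -0.56 (SE 0.12, limma adjusted p = 0.501). The CasVP libraries were the highest of all 10 for INHBE: sgRNA, INT and P4P6 lay between 6.24 and 9.01 FPKM, and TOP1 differed from these 3 guides by -0.07 (adjusted p = 0.719). Of the 24 tested members of the integrated stress response list, 18 had estimates above 0, with a median of 0.04 that turned to -0.01 under quantile normalization. That share was 50.8% over all tested features. It was 69.8% in the highest of 5 equal bins by mean FPKM, where the list's median level of 89.1 FPKM lies. ATF4, the master factor of that response, had 847 and 827 FPKM in TOP1 and 768 and 773 FPKM in CasVP, while TRIB3, a pseudokinase it induces, had 45.6 and 45.3 FPKM in TOP1 and 56.2 and 50.9 FPKM in CasVP.

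EFNA1, an ephrin ligand, measured 8.35 and 9.40 FPKM in TOP1 and 11.9 and 11.9 FPKM in CasVP, below all other 8 libraries in TOP1 (log2 difference -0.39, limma adjusted p = 0.501). PCMTD1, a methyltransferase-like protein, had 9.93 and 11.0 FPKM in TOP1 and 13 and 15.6 FPKM in CasVP. SPR, which makes tetrahydrobiopterin, had 10.0 and 12.3 FPKM in TOP1 and 14.7 and 15.1 FPKM in CasVP. SLC6A6, the taurine transporter, TMEM150A, CTXN1, PHF21B, C19orf51 and C3orf21 had log2 differences between -0.38 and -0.33.

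**Figure D3:**
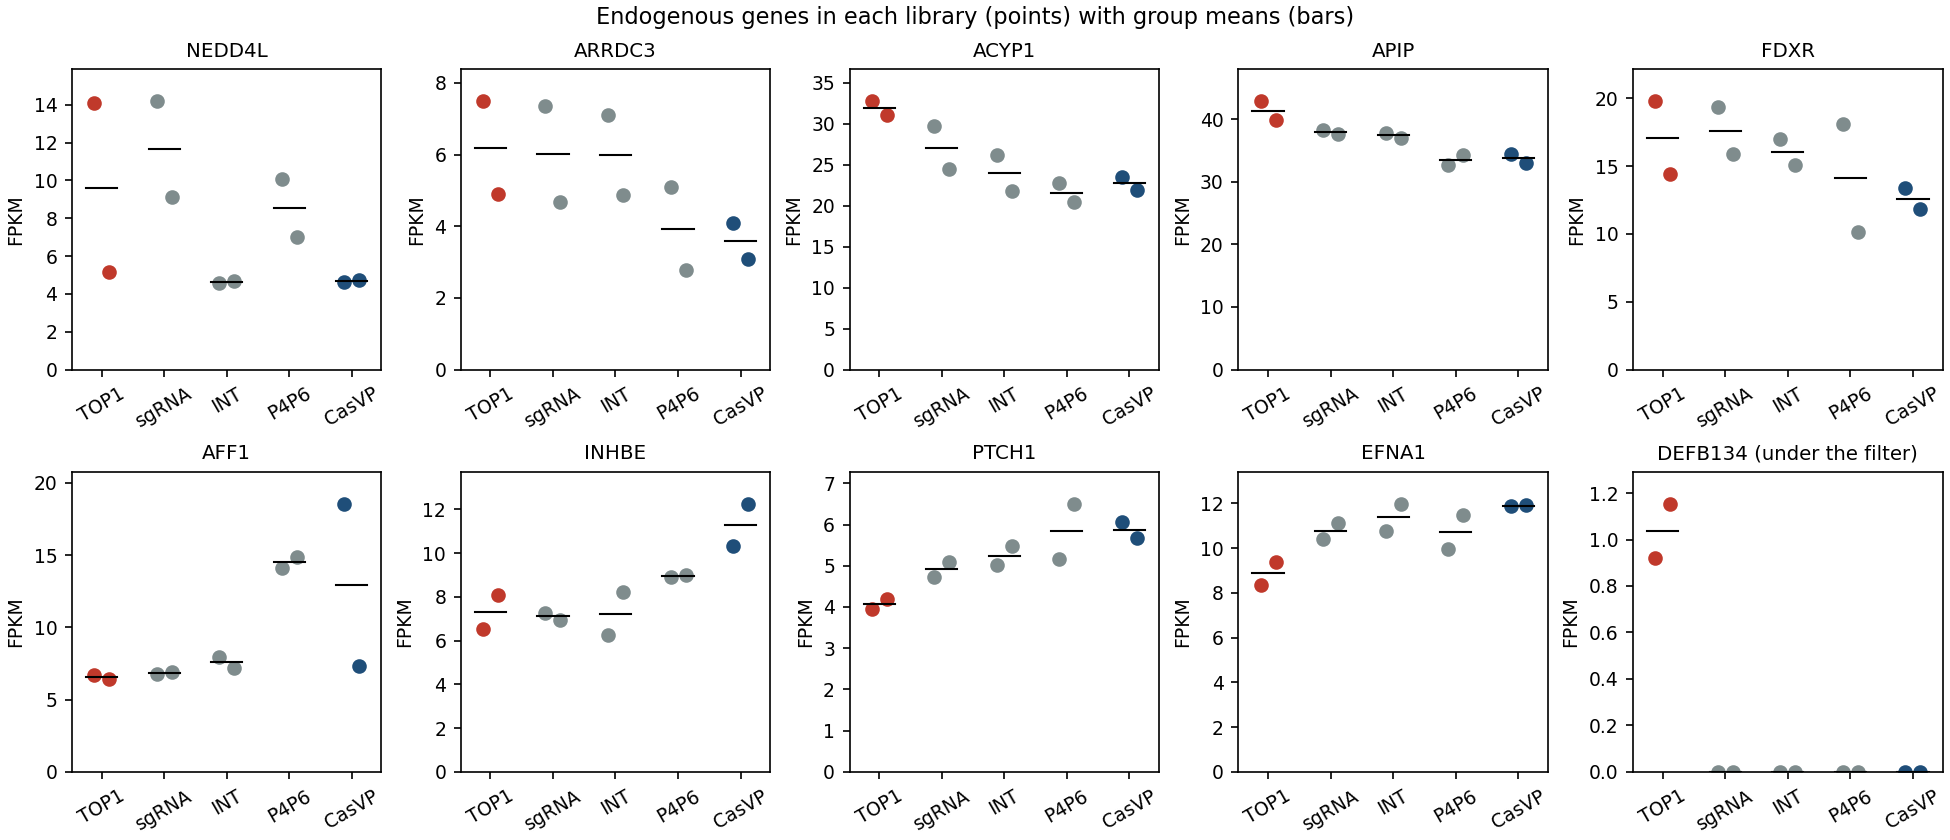
FPKM of 9 endogenous genes above the filter and of DEFB134, under it, in each library (points) with group means (bars), by group from TOP1 at the left to CasVP at the right. NEDD4L and AFF1 each owe their difference to 1 library, ACYP1 lies above and PTCH1 and EFNA1 below all other 8 libraries, and DEFB134 is above 0 in the TOP1 libraries alone.

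PTCH1 led a group of Hedgehog pathway genes with low values in TOP1. The pathway starts at PTCH1, the receptor that holds SMO in check, and ends at the GLI transcription factors, which SUFU restrains and which in turn raise PTCH1 and HHIP. PTCH1 measured 3.95 and 4.2 FPKM in TOP1, against 6.06 and 5.68 FPKM in CasVP, and the lowest of the other 8 libraries was 4.74 FPKM. Its log2 difference was -0.44 (SE 0.10, limma adjusted p = 0.501), and that from the other 3 guides was -0.31 (adjusted p = 0.107). SUFU, at 4.62 and 4.28 FPKM in TOP1 and 5.36 and 5.81 FPKM in CasVP, and HHIP, a decoy receptor for the ligands, at 2.17 and 2.17 FPKM in TOP1 and 2.80 and 2.57 FPKM in CasVP, were also below all other 8 libraries.

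The other Hedgehog genes stood closer. GLI1, the pathway's most used transcriptional readout, measured 1.62 and 1.57 FPKM in TOP1, against 2.10 and 1.47 FPKM in CasVP, and so overlapped. SMO had 18.9 and 18.6 FPKM in TOP1 and 19.7 and 18.0 FPKM in CasVP. Of the 15 tested members, 0 passed, 6 lay below CasVP without overlap and 2 above (GAS1, a coreceptor, and DISP1, which releases the ligands). Over all features these shares were 23.5% below and 24.7% above. The list median was -0.08, between -0.09 and -0.03 over the alternatives, and the value nearest 0 came without TOP1 replicate 0.

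The promoter of PTCH1 is shown because it is a textbook target of the GLI factors. It is a window from 250 bases before to 50 after an annotated start, at chr9:95509217-95509516 on the minus strand of GRCh38.p14 (RefSeq), and capitals mark a match to the GLI motif GACCACCCA on the opposite strand.
PTCH1: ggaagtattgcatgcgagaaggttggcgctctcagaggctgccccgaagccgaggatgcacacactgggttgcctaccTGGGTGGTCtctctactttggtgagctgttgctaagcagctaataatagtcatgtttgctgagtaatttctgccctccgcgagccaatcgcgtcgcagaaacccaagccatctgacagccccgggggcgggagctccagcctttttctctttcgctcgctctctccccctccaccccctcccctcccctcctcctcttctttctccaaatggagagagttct
The motif was searched on both strands. It was in 1 of 5 PTCH1 windows, in 0 of 31 windows of the other Hedgehog list genes and in 0.236% of all 35116 windows of this length. A match describes these letters only.

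Targets of p53 were mostly higher in TOP1 than in CasVP, without a call. p53 is the stress-responsive transcription factor that slows the cell cycle and promotes DNA repair or cell death. Of 30 tested targets, 25 had estimates above 0, 21 lay above CasVP without overlap and 1 below, and 0 passed. Over all features 50.8% had estimates above 0, 24.7% lay above without overlap and 23.5% below. The list median was 0.13, between 0.08 and 0.20 over the alternatives. CDKN1A, the cell cycle inhibitor p21, measured 40.2 and 35.3 FPKM in TOP1, against 33.5 and 29.6 FPKM in CasVP. MDM2, the ligase that degrades p53, measured 69.8 and 61.5 FPKM in TOP1 and 55.8 and 52.6 FPKM in CasVP. GADD45A, a DNA damage gene, stood at 56.5 and 43.7 FPKM in TOP1 and 42.1 and 38.3 FPKM in CasVP (log2 difference 0.30, limma adjusted p = 0.533), and its difference was 0.12 without TOP1 replicate 0.

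FDXR, a mitochondrial reductase, had the highest estimate of the p53 list, with 19.8 and 14.4 FPKM in TOP1 and 13.4 and 11.8 FPKM in CasVP (log2 difference 0.40, SE 0.22, limma adjusted p = 0.592). Without TOP1 replicate 0 the difference of FDXR was 0.19. PHLDA3, an inhibitor of AKT, had 17.2 and 13.3 FPKM in TOP1 and 11.9 and 10.8 FPKM in CasVP, and EDA2R, a death receptor, had 5.80 and 4.45 FPKM in TOP1 and 3.99 and 3.74 FPKM in CasVP. SERTAD1 was the 1 target below, at 5.02 and 4.45 FPKM in TOP1 and 5.28 and 5.73 FPKM in CasVP.

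The p53 list did not set TOP1 apart from the other guides. Its median difference between TOP1 and the other 3 guides was 0.00, with 15 of 30 members above 0. The medians against CasVP were 0.13 with TOP1, 0.16 with sgRNA, 0.17 with INT and 0.08 with P4P6; these 4 share the CasVP libraries. The list also varied between libraries of a group. In 19 of the 30 features (63.3%) the library with index 0 was the higher in all 5 groups, against 1275 (11.0%) of all tested features. Within an index the median difference of TOP1 from CasVP was 0.17 for index 0 and 0.09 for index 1.

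Ribosomal protein genes were the most uniform of the gene lists. Of 73 tested ribosomal protein features, 71 had estimates above 0, 62 lay above CasVP without overlap and 0 below. Over all features 24.7% lay above without overlap and 23.5% below. In the highest of 5 equal bins of features by mean FPKM these shares were 44.8% and 13.2%. The list median was 0.10, and 0 of its features passed. RPL39 measured 7898 and 7210 FPKM in TOP1, against 6787 and 6923 FPKM in CasVP, and RPS6 5675 and 5274 FPKM in TOP1, against 4966 and 4938 FPKM in CasVP. RPS29 overlapped, at 4805 and 4353 FPKM in TOP1 and 4315 and 4451 FPKM in CasVP, as did RPS15, at 1678 and 1233 FPKM in TOP1 and 1213 and 1271 FPKM in CasVP. The size depends on the scaling between libraries: under quantile normalization the median was 0.01. The list's medians against the same CasVP libraries were 0.09 with sgRNA, -0.05 with INT and -0.20 with P4P6. Summed FPKM over all features was 612551 and 601679 in the TOP1 libraries, against 584132 and 580064 in the CasVP libraries.

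Most ribosomal protein transcripts begin with a terminal pyrimidine tract, through which their translation is tuned to growth signals. The last bases before and the first bases from the annotated start are shown for 4 genes (RefSeq, GRCh38.p14), 2 with a tract and 2 without. Capitals mark the tract, a C at the annotated start followed by at least 4 pyrimidines. The windows are chrX:119791611-119791650, minus strand, for RPL39; chr9:19380217-19380256, minus strand, for RPS6; chr19:1438376-1438415, plus strand, for RPS15; and chr14:49598691-49598730, minus strand, for RPS29.
RPL39: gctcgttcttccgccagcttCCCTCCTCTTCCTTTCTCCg
RPS6: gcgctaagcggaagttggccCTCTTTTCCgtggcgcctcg
RPS15: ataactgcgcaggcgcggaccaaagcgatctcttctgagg
RPS29: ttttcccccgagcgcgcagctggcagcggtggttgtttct
RPS15 and RPS29 have no tract at these annotated starts. An annotated start was matched for 57 of the 73 ribosomal protein features, and the 2 with estimates below 0 were not among them. Of the 57, 44 had a tract and 13 did not. In these sets 44 of 44 and 13 of 13 had estimates above 0, with medians of 0.11 and 0.10. Among other features with a mean of at least 100 FPKM, 61 of 71 with a tract (85.9%) and 318 of 397 without (80.1%) had estimates above 0, and the median was 0.06 in both. The tract was in 4.07% of all promoter windows.

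Medians of the mitochondrial gene lists were above 0 too. Of 70 features of the nuclear-encoded respiratory chain, 62 had estimates above 0, 41 lay above CasVP without overlap and 3 below. Over all features 24.7% lay above and 23.5% below, and in the bin of highest mean FPKM 44.8% and 13.2%. The list median was 0.07, and 0.01 under quantile normalization. COX5A, a subunit of cytochrome oxidase, measured 169 and 156 FPKM in TOP1, against 141 and 140 FPKM in CasVP (log2 difference 0.21, limma adjusted p = 0.501). Of 68 mitochondrial ribosomal protein features, 50 had estimates above 0, 23 lay above and 8 below without overlap, and the median was 0.04. Their median level of 55.1 FPKM lies in the bin of highest mean FPKM. In that bin 69.8% of features had estimates above 0, against 50.8% of all, and the median difference was also 0.04. These values do not set the mitochondrial ribosomal proteins apart from features of like level. In both lists 0 features passed. Against the same CasVP libraries, the respiratory chain median was 0.08 with sgRNA, -0.04 with INT and -0.14 with P4P6. That of the mitochondrial ribosomal proteins was 0.04, -0.07 and -0.12 in that order.

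The estimates followed the base composition and the level of a transcript. In 5 equal bins from the lowest to the highest GC content, the median difference between TOP1 and CasVP was 0.04, 0.03, 0.01, -0.03 and -0.05. In the bin of lowest GC content 38.8% of features lay above CasVP without overlap and 10.2% below; in the bin of highest GC content these shares were 9.38% and 36.5%. From the lowest to the highest mean FPKM, the share of features with an estimate above 0 was 43.3%, 42.3%, 45.9%, 53.6% and 69.8%. Spearman's rho over 10972 features was -0.32 with GC content, -0.12 with transcript length and 0.21 with mean FPKM. Differences between libraries of 1 group had a rho with GC content of 0.04 (TOP1) and 0.07 (CasVP). These are correlations across features of 4 libraries, which share depth and library preparation, so no p is given.

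**Figure D4:**
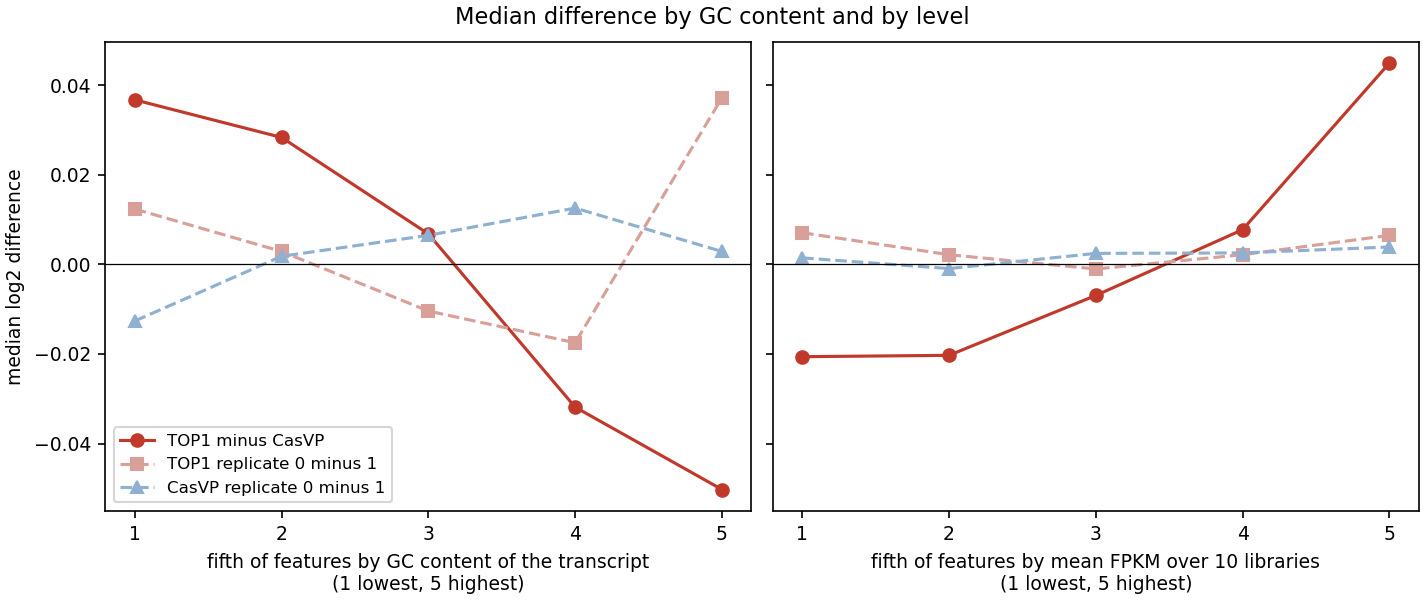
Median log2 difference in 5 equal bins of features, by GC content of the transcript (left) and by mean FPKM (right), for TOP1 minus CasVP (solid) and for the 2 libraries of each group (dashed). The TOP1 minus CasVP medians run from 0.04 to -0.05 with GC content and from -0.02 to 0.04 with level; those within groups stay within 0.04 of 0.

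The GC trend was seen in both TOP1 libraries. Relative to each feature's mean, the median of the bin of highest GC content minus that of the lowest was -0.08 and -0.11 in the TOP1 libraries, -0.04 and -0.02 with sgRNA, 0.02 and 0.00 with INT, 0.18 and 0.11 with P4P6, and 0.00 and -0.02 in CasVP. TOP1 and P4P6 thus stood at opposite ends. Its part in the differences of single genes was not tested. With GC and length trends removed the estimates were 0.41 for ACYP1, 0.24 for APIP, -0.45 for PTCH1 and -0.52 for INHBE, but -0.26 for PHF21B and -0.15 for SRCAP, against -0.33 and -0.24 before; 17 of the 133 named genes moved by over 1.5 times or changed sign. The number of features at an unadjusted p under 0.05 was then 742 of 10976 (6.76%).

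POLR2A, the largest subunit of RNA polymerase II, measured 41.4 and 41.6 FPKM in TOP1, against 48.8 and 47.6 FPKM in CasVP (log2 difference -0.21, limma adjusted p = 0.501). SRCAP, a chromatin remodeller, had 29.6 and 31.8 FPKM in TOP1 and 36.4 and 36.5 FPKM in CasVP. POLR2A lay below all other 8 libraries and SRCAP did not. CREBBP, an acetyltransferase that activation domains recruit, had 16.6 and 16.9 FPKM in TOP1 and 19.2 and 19.7 FPKM in CasVP. Its paralogue EP300 had 18.7 and 20.3 FPKM in TOP1 and 21.8 and 23.1 FPKM in CasVP. None of these 4 genes passed. Over the 34 Mediator and coactivator features, 0 passed, and the median was -0.02. Of the 34, 4 lay above CasVP without overlap and 9 below, where 24.7% and 23.5% of all features did. Against the other 3 guides 21 of the 34 had estimates above 0, with a median of 0.03. CCND3, a D-type cyclin, and DNM1, a dynamin, were below all other 8 libraries too, with log2 differences of -0.23 and -0.31.

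Genes of growth and stress programmes were mixed. Over all features 24.7% lay above CasVP without overlap and 23.5% below. Of 43 cell cycle genes, 19 lay above CasVP without overlap and 8 below, with a median of 0.03. UBE2C, which acts at mitotic exit, measured 130 and 100 FPKM in TOP1 and 95.7 and 95 FPKM in CasVP, and CCND3 14.4 and 15.5 FPKM in TOP1 and 18.0 and 17.4 FPKM in CasVP. Of 22 RNA exosome features 8 lay above and 1 below, with a median of 0.05; MPHOSPH6, an exosome cofactor, measured 34.0 and 34.5 FPKM in TOP1 and 28.2 and 30.6 FPKM in CasVP. Of 27 hypoxia and glycolysis genes 11 lay above and 2 below, with a median of 0.03 that was 0.00 under quantile normalization; LDHA, which makes lactate, measured 323 and 332 FPKM in TOP1 and 272 and 272 FPKM in CasVP. None of these genes passed (lowest limma adjusted p 0.501).

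Genes that sense foreign nucleic acid or respond to it lay on both sides of CasVP, and none passed. Among all tested features 24.7% lay above CasVP without overlap and 23.5% below. Of 20 tested interferon-stimulated genes, 2 lay above CasVP without overlap and 4 below, with a median of -0.02. Of 9 DNA and RNA sensing genes 2 lay above and 3 below, with a median of -0.00 that was 0.01 under quantile normalization. Their medians against CasVP were 0.061 with sgRNA, 0.055 with INT and 0.068 with P4P6. Against these 3 guides, 0 of the 9 had estimates above 0 in TOP1, with a median of -0.07. IRF3, the factor that switches interferon on, had 25.1 and 26.2 FPKM in TOP1 and 29.8 and 29.4 FPKM in CasVP (log2 difference -0.20, limma adjusted p = 0.501). Of 10 NF-kappaB targets 1 lay above and 1 below. Of 20 immediate early genes 4 lay above and 6 below; FOS measured 4.68 and 4.2 FPKM in TOP1 and 3.42 and 3.31 FPKM in CasVP, and JUN 104 and 76.6 FPKM in TOP1 and 76.6 and 75.2 FPKM in CasVP, where the lower TOP1 library was at the level of the higher CasVP library.

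Among the other lists, medians lay between -0.06 and 0.03. They were 0.03 for the unfolded protein response, heat shock, sterol synthesis and HEK293 lists, 0.01 for DNA topoisomerases and 0.00 for RNA polymerase III transcription. The unfolded protein response median was -0.00 under quantile normalization. Medians were -0.01 for HES and ID repressors, -0.02 for fatty acid synthesis and for BMP, activin and TGF-beta signalling, -0.03 for NF-kappaB targets, 0.01 for immediate early genes and -0.06 for replication-dependent histones. Of the 26 lists with at least 5 tested members, 0 held a called feature, and of 4 tested genes from loci often used for CRISPR activation 0 passed. The topoisomerase gene TOP1 measured 50.5 and 52.9 FPKM in the libraries of the TOP1 guide and 50.9 and 52.2 FPKM in CasVP (log2 difference 0.00, 95% confidence interval -0.12 to 0.13).

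**Figure D5:**
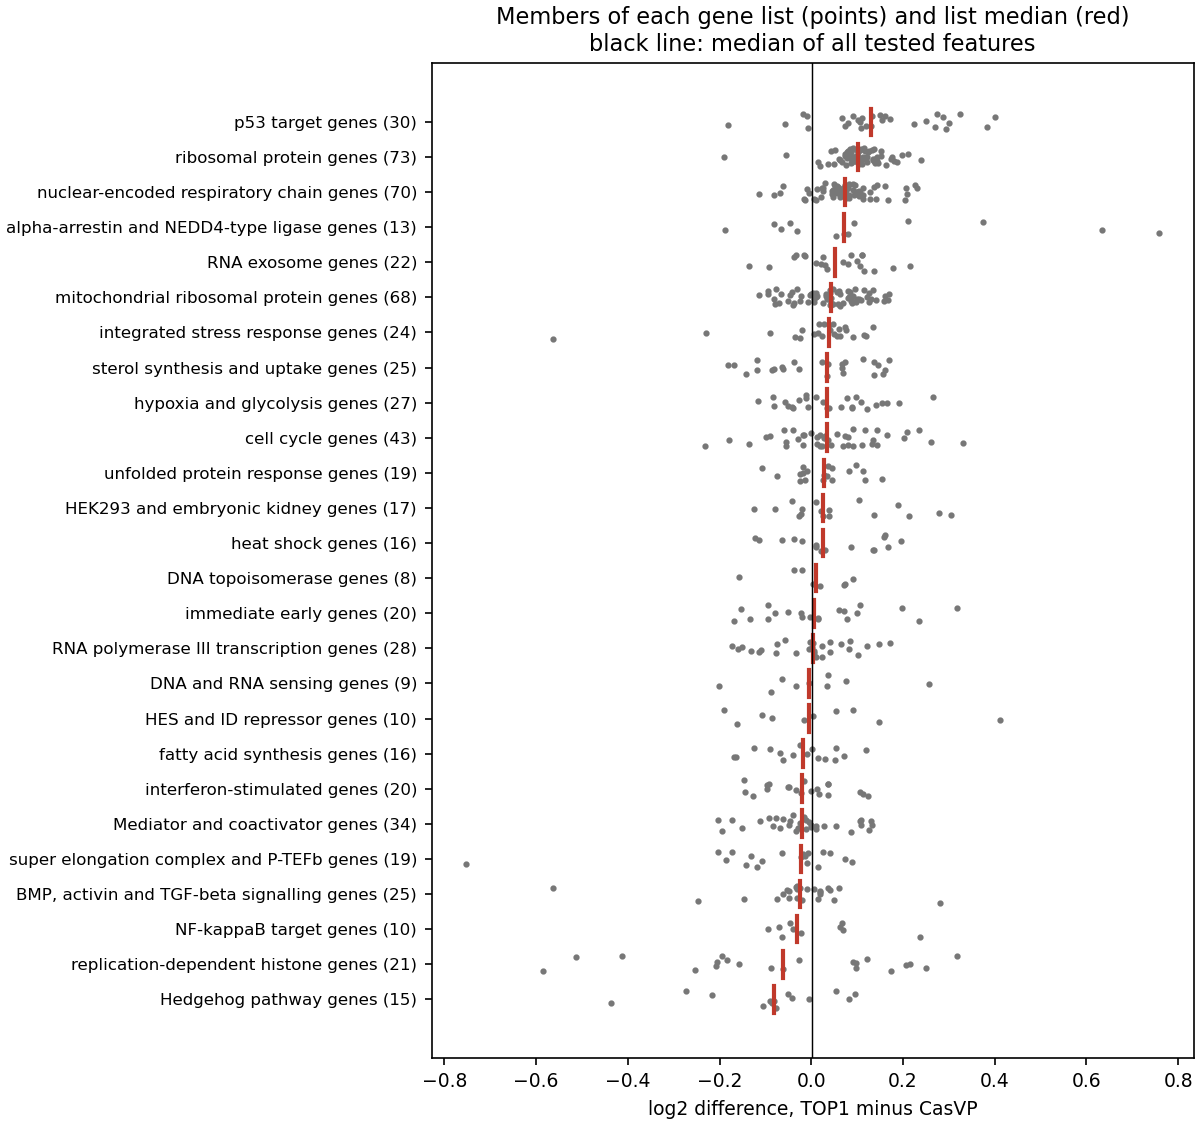
Log2 difference of FPKM + 1, TOP1 minus CasVP, for the tested members of each gene list (points; numbers of features in parentheses), with the list median (red) and the median of all tested features (black line). Medians run from 0.13 for p53 targets to -0.08 for Hedgehog genes, and 0 endogenous members passed the test; the ribosomal protein and respiratory chain medians were 0.01 under quantile normalization.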

How the data were processed

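Poly(A)-selected RNA of 10 HEK293FT libraries was sequenced. The authors deposited 1 table of FPKM values with a column for each library. The submitters' processing notes name TopHat2 2.0.13, Cuffdiff 2.2.1 and the build hg19; how libraries were scaled, and on which annotation, is not given in the sources used here. Column indices (0 and 1) were not matched to the replicate numbers of the labels, and no label says whether the libraries within a group are separate cultures, so p-values measure only the spread between these samples.

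Values were taken as log2(FPKM + 1), a scale that understates the change of low genes. Named features with a mean of at least 1 FPKM were fitted with limma 3.58.1 (R 4.3.3). The fit had a mean per group, a trend of the variance with level and all 10 libraries, which left 5 residual degrees of freedom. Two-sided p-values got a Benjamini-Hochberg adjustment for each comparison, at a threshold of 0.05. TOP1 was compared with CasVP and with the mean of the other 3 guides. Of 19301 named features, 7727 were under the filter; 945 unnamed ones were left out. Of those tested, 509 name several genes and 232 share a name, so their reads may be split or pooled. Counts were not used here. Depth was estimated from steps among low FPKM values and transcript lengths (290 values; for TOP1 replicate 0 the quartiles were 19800000 and 28800000 fragments) and carries that uncertainty.

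The members and gene lists were chosen with earlier results of these data known. Named are all constructs; as fewer than 10 endogenous features passed, the 12 each way with the largest difference and the 6 with the smallest p among single-gene features with no overlap and a mean of at least 5 FPKM; up to 4 members per list by size of difference; up to 8 each way outside all other libraries; and the gene TOP1. Some genes that this rule names are not reported here. Members named beyond it were chosen after their values were seen. The construct ratios, tract, GC and index counts are descriptions. GC content and length are medians over GENCODE v29 protein-coding transcripts (94.8% of features matched). The method was tested on simulated data. There it called 22 to 36% of log2 changes of 0.25 and 96 to 100% of those of 0.5. A simulated run altered 50 features per size, with log2 sizes of 0.25, 0.5, 1 and 2. The Benjamini-Hochberg cutoff is laxer when many features pass, and in the real data 1 passed against CasVP. The simulated shares therefore do not tell how often a change of 0.5 would be called in the real data. The simulated spread was averaged over features of like level, so it does not cover genes with wider libraries. Alternatives were a pseudocount of 0.1, other filters, scalings, variance models and sets of libraries, a replicate block, leaving out each library and, added after seeing the data, removal of GC and length trends.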

Additional observations from a re-analysis of the deposited data

Results flagged for a closer look

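DEFB134, a beta-defensin gene, was under the filter. With no filter it was called against CasVP and against the other 3 guides. It entered that fit only through its TOP1 values, so these calls add no support to the pattern of DEFB134. It was above 0 in the TOP1 libraries alone. It stood at 0.921 and 1.15 FPKM there, a mean of 1.04 FPKM, and was listed at 0 in all other 8 libraries, CasVP included. It was the 1 endogenous feature of that pattern in TOP1, and the sgRNA, INT, P4P6 and CasVP groups each had 0 (at least 0.1 FPKM in both libraries of a group and 0 elsewhere). Its neighbours DEFB136 and DEFB135 were listed at 0 in both TOP1 libraries, but DEFB135 stood at 0.737 FPKM in sgRNA replicate 0. CTSB, an expressed gene nearby, measured 29.4 and 31.6 FPKM in TOP1 and 28.0 and 28.8 FPKM in CasVP. At such levels a short transcript can rest on few fragments, and whether the TOP1 guide pairs with a site there was not tested.

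C1orf189 was likewise under the filter and at 0 in both CasVP libraries, with 0.602 and 0.402 FPKM in TOP1, a mean of 0.502 FPKM; it was also above 0 in both INT libraries, at 0.165 and 0.185 FPKM, and in 1 library each of P4P6 and sgRNA.

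The entry of the sgRNA guide stood at 109 FPKM in P4P6 replicate 0, although that group received another guide, and at 233 FPKM in sgRNA replicate 0. It was at 0 in sgRNA replicate 1, in both TOP1 libraries, in both INT libraries, in P4P6 replicate 1 and in both CasVP libraries.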

How the results depend on the processing

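Gaussia passed against CasVP under all 15 alternatives, with log2 differences between 3.37 and 3.50, and was among the called features in each. The count of 1 became 3 with no filter (Gaussia, the TOP1 guide entry and DEFB134). Leaving out each library gave 1 to 2, with AFF1 the addition without CasVP replicate 1. Against the other 3 guides the count of 0 became 2 with no filter, 3 under quantile normalization (Gaussia, ATXN2L and POLR2A, all lower), 2 without the P4P6 libraries and 2 with library weights (Gaussia and dCas9-VP64), and stayed at 0 on leaving out each library.

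Column indices deviate together in 8 of 10 pairs of groups by a correlation over 0.1 (range -0.04 to 0.42; 0.09 for TOP1 and CasVP), short of every pair, and no label pairs them, so they were not taken to pair samples; with the index as a replicate block, TOP1 against CasVP gave 1 call and TOP1 against the other guides 386, of which 205 were higher and 181 lower, and Gaussia passed there (limma adjusted p = 0.0436).

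Of 1976 values of named genes under alternatives, 1959 kept their direction and side of the threshold, 1 passed newly (AFF1) and 16, in 12 genes, changed sign, none of them called. Leaving out 1 library moved the difference of 74 of the 133 genes by over 1.5 times or changed its sign. On leaving out each library, ranges were -0.13 to 0.95 for HES4, -0.016 to 0.16 for TDP1, -0.33 to 0.0037 for HEY2, -0.10 to 0.40 for ID1, -0.24 to 0.028 for GPR161, -0.088 to 0.23 for RELB, -0.038 to 0.36 for HSPB8, -0.53 to 0.23 for IFI27, -0.035 to 0.49 for COX8A, -0.011 to 0.43 for RPS15, -0.50 to 0.11 for RPS20 and -0.030 to 0.037 for the gene TOP1. TOP1 was -0.024 under quantile normalization and -0.014 with GC and length trends removed. The medians of 13 of 26 gene lists kept their sign under all alternatives and those of 13, all between -0.03 and 0.04, did not in at least 1. The causes were not tested. Cypridina has no value at a mean of at least 5 FPKM. With 2 libraries a group, an exact permutation test cannot go below 0.33, and depth limits features near 1 FPKM.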

Other observations

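Other features stood outside all other libraries in TOP1. Above them were 502 features (4.34%), among them SAT1, which catabolises polyamines, at 44.3 and 41.2 FPKM in TOP1 and 39.0 and 36.3 FPKM in CasVP, and CCDC109B, a regulator of the mitochondrial calcium uniporter, at 30.8 and 27.5 FPKM in TOP1 and 25.1 and 23.3 FPKM in CasVP. Below them was MBOAT7, a lysophospholipid acyltransferase, at 12.2 and 11.8 FPKM in TOP1 and 13.5 and 15.5 FPKM in CasVP. None of the 3 passed the test.

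B3GNT8, a glycosyltransferase chosen after its values were seen, measured 12.4 FPKM in TOP1 replicate 0 and 19.5 FPKM in P4P6 replicate 1, against 0.174 FPKM in TOP1 replicate 1 and between 0.102 and 0.340 FPKM in the other 7 libraries, CasVP included. Its log2 difference of 1.71 from CasVP (limma adjusted p = 0.667) was the largest of the endogenous features.

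Index 0 was the higher library in all 5 groups for 33 of 73 ribosomal protein features (45.2%) and 17 of 43 cell cycle genes (39.5%) too, and for 1 of 70 respiratory chain features (1.43%), against 11.0% of all tested features; whether libraries with the same index were handled together was not tested.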
